A study of Mus musculus with 12 samples.

Results

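The 10 genes described here make, move and remodel phosphatidylserine and cardiolipin, and they were chosen by name: Ptdss1, Ptdss2, Pisd, Prelid1, Prelid3b, Triap1, Crls1, Pgs1, Ptpmt1 and Taz. Each mouse symbol was matched to its Ensembl identifier, and all 10 were found among the 49548 genes of the count tables. The rule itself uses no measured value. RNA of the lumbar spinal cord was sequenced in bulk from 12 untreated mice at 30 days of age, to ask which transcripts differ in a mouse model of the axonal neuropathy CMT2A. There were 8 MFN2 mice, of the MitoCharc1 line (background B6;D2, transgene Tg(Eno2-MFN2*R94Q)L51Ugfm), which are hemizygous for a human R94Q MFN2 transgene and keep both copies of mouse Mfn2. The other 4 mice were WT, which the labels call C57BL/6 and the study's methods call littermates, so that any difference in strain background cannot be told apart from the transgene. The transgene is driven by the rat Eno2 promoter, mainly in neurons, and all MFN2 mice are of 1 transgenic line, while whole cord also holds glia and vessels. In such bulk RNA, fewer cells of a type and less RNA per cell cannot be told apart.

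The libraries carry numbers that form 2 runs. The first run, 41 to 47, holds 3 MFN2 libraries (41, 42 and 43) and all 4 WT libraries (44 to 47), and the second run, 72 to 76, holds 5 MFN2 libraries and no WT library. The labels do not say what the runs were, and a comparison of the second-run MFN2 libraries with WT cannot tell genotype from run. Total counts were between 19359454 and 26738930 in MFN2 libraries and between 19453238 and 23564568 in WT libraries. The least counted of the 10 genes, Triap1, still had 130 to 217 reads per library, and Ptdss1 had 1173 to 2050. In every library pair at least 26360 genes had different counts, so that none was a copy of another. Levels are given as CPM (counts scaled to a fixed library total) after scaling by edgeR's trimmed mean of M values (TMM), and as RPKM (CPM divided by the annotated exon length in kilobases) where genes are compared with each other.

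Of the MFN2 libraries, 43 and 73 stood apart. In library 43 the 9 caudal Hox genes of the list, which are active in the cord from brachial to lumbar levels and not in forebrain, summed to 43.5 CPM against 253 to 314 CPM in the other 11 libraries. The motor neuron markers summed to 362 CPM there, against 1764 to 3178 CPM in the others, and oligodendrocyte markers to 6029 CPM against 13894 to 25553 CPM. Forebrain markers summed to 4732 CPM in library 43 and to 109 to 208 CPM in the other 11. The Hox10 genes among them, the most caudal of the list, summed to 11.6 CPM in library 43, to 63.4 CPM in library 73 and to 37.7 to 90.0 CPM in the other 10. The spinal cord label was thus borne by caudal Hox and motor neuron transcripts in 11 libraries, and both were low in library 43. Libraries 43 and 73 also held transcripts of Schwann cells, the myelinating cells of nerve roots. Prx, a myelin gene of these cells, was at 35.5 and 50.4 CPM there and at 0.235 to 1.22 CPM in the other 10, and 4 Schwann cell markers (Prx, Pmp2, Ncmap and Fbln2) summed to 44.5 and 65.4 CPM there and to 4.99 to 7.24 CPM in the others. The main counts and calls are therefore also given without these libraries. Of the 10 lipid genes, 3 were lowest of all 12 libraries in library 43 (Ptdss1, Prelid3b and Pgs1) and 2 were highest there (Ptdss2 and Crls1). Mouse Mfn2 itself was at 213 ± 15.1 CPM in WT (SD, n = 4) and 206 ± 12.8 CPM in MFN2 mice (SD, n = 8), a log2 fold change of -0.05 (SE 0.065, edgeR adjusted p = 0.733). This mouse gene is not the human transgene, so its level does not check the genotype labels.

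Phosphatidylserine is made at the endoplasmic reticulum by base exchange and travels across membrane contacts into mitochondria, where it is decarboxylated to phosphatidylethanolamine. Cardiolipin, the signature lipid of the inner mitochondrial membrane, is built there from imported phosphatidic acid by way of CDP-diacylglycerol, phosphatidylglycerophosphate and phosphatidylglycerol, and is then remodelled in its acyl chains. Mitofusin 2, the product of the mutated gene, sits on the outer mitochondrial membrane and at these contacts, and has been described as a binder of phosphatidylserine.

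Per length, the carrier genes Prelid1 and Prelid3b led in the normal cord. By CPM, without division by length, Prelid3b was at 35.0 in WT, below Ptdss1 at 63.1 and Pgs1 at 61.6. In the 4 WT libraries Prelid1, whose product carries phosphatidic acid across the intermembrane space, was at 23.7 ± 1.95 RPKM (SD, n = 4), and Prelid3b, whose product carries phosphatidylserine, at 18.8 ± 0.633 RPKM. Ptdss1, the synthase that starts from phosphatidylcholine, followed at 14.7 ± 0.560 RPKM and Pgs1, the phosphatidylglycerophosphate synthase that commits lipid to cardiolipin, at 11.6 ± 0.673 RPKM. Triap1, the small partner that PRELI-family carriers need, was at 7.69 ± 0.938 RPKM, and its range overlapped that of the cardiolipin synthase gene Crls1 at 6.93 ± 0.140 RPKM. Ptpmt1, the phosphatase between Pgs1 and Crls1, was at 5.59 ± 0.255 RPKM, and its range overlapped that of Ptdss2, the synthase that starts from phosphatidylethanolamine, at 5.28 ± 0.310 RPKM. The transacylase gene Taz (tafazzin) was at 3.50 ± 0.0462 RPKM and the decarboxylase gene Pisd was lowest at 2.42 ± 0.0660 RPKM. All other neighbours in this order had ranges over the 4 WT libraries that did not overlap. Among all genes tested in MFN2 against WT, Prelid1 stood at the 89.8th percentile of WT RPKM and Pisd at the 37.8th.

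**Figure D1:**
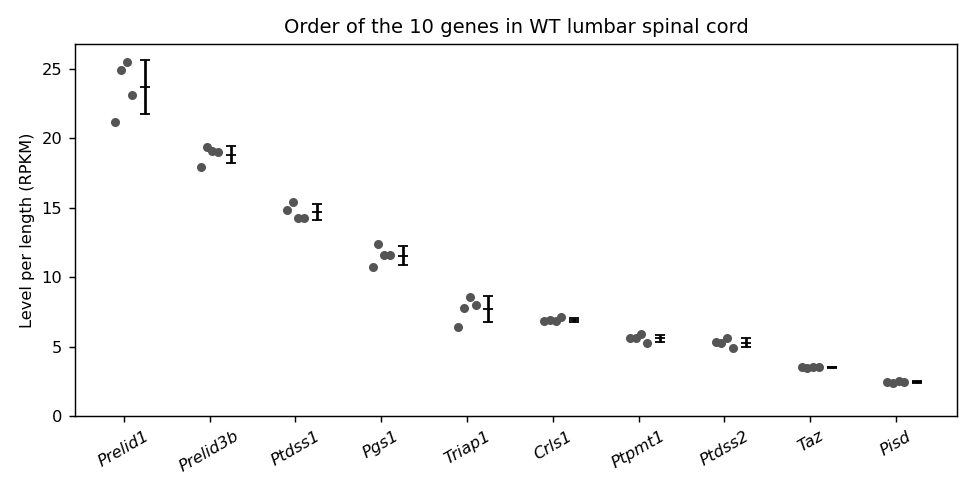
Level per length (RPKM, vertical axis from 0) of the 10 genes in the 4 WT libraries (points), with the mean and SD as a bar beside them, in descending order of the mean. Prelid1 is highest at 23.7 RPKM and Pisd lowest at 2.42 RPKM, and neighbouring ranges overlap only for Triap1 with Crls1 and for Ptpmt1 with Ptdss2.

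The 3 genes on which the comparisons below turn are Pgs1, Prelid3b and Prelid1, and short stretches of their RefSeq promoter windows are shown to place the letters that were searched for. These windows, in GRCm38.p6, run from 250 bases before to 50 bases after the start that RefSeq gives, read on the gene's strand. Of the 10 genes, 9 had at least 1 window, with 11 windows in all. Below, a gene counts as having a motif if any of its windows holds it, while the shares over all promoters are per window. Capitals mark a GC box (GGGCGG or its reverse CCGCCC) in Pgs1, an ETS motif (CCGGAAGT or its reverse ACTTCCGG) in Prelid3b, and an E-box (CACGTG) followed by an ETS motif in Prelid1. The stretches lie at chr11:117986686-117986713 on the plus strand, chr2:174472984-174473011 on the minus strand and chr13:55321971-55321997 on the plus strand. They lie before the RefSeq start used for the window but after the GENCODE gene start given below for each gene, and each marked motif overlaps an exon that GENCODE annotates on either strand.
Pgs1: gtccatgcctcCCGCCCttgagctccct
Prelid3b: gcgggatggcACTTCCGGgcgtcctagc
Prelid1: gtCACGTGacgcgggcgCCGGAAGTgg
On either strand, the ETS motif was in 3.89% of the 32851 mouse promoter windows, and among the 9 genes in Prelid1 and Prelid3b. The E-box was in 7.15% of all windows and in Crls1 and Prelid1, and the GC box in 35.7% of all windows and in 6 of the 9 genes. The letters CCAAT were in 37.4% of all windows and, of the 9 genes, in Pisd. The letters GCATGCGC of the NRF1 core, AAGATGGC of YY1, TGATGCAA of the amino acid response element and TCAAGGTCA of ERR were in none of the 9, and in 2.71%, 2.75%, 0.895% and 0.423% of all windows. Any relation between these letters and the levels of the genes was not tested. A match in letters is a description and no evidence of binding.

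Phosphatidylserine synthesis did not pass the test in any comparison. Ptdss1 (ENSMUSG00000021518, chr13:66932830-66998401, plus strand) was at 63.6, 66.3, 61.3 and 61.2 CPM in the 4 WT libraries, at 78.2, 63.0 and 59.9 CPM in MFN2 libraries 41, 42 and 43, and at 68.7, 63.5, 63.1, 64.3 and 70.1 CPM in MFN2 libraries 72 to 76. Library 41 was highest and the groups overlapped. The log2 fold change of MFN2 over WT was 0.07 (SE 0.0710, edgeR adjusted p = 0.618), and 0.06 for the second run alone (SE 0.0508, edgeR adjusted p = 0.408). Ptdss2 (ENSMUSG00000025495, chr7:141122382-141157606, plus strand) was between 27.5 and 31.8 CPM in WT and between 26.3 and 34.8 CPM in MFN2 mice, with a median of 27.8 CPM. Its highest value came from library 43 and the next was 29.6 CPM. Its log2 fold change was -0.06 (SE 0.0796, edgeR adjusted p = 0.704) over all MFN2 mice, -0.11 without library 43 (SE 0.0583, edgeR adjusted p = 0.294, the lowest over alternatives that went up to 0.978) and -0.11 (SE 0.0610, edgeR adjusted p = 0.211) for the second run.

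The decarboxylase gene Pisd (ENSMUSG00000023452, chr5:32736301-32785646, minus strand) was at 13.9, 13.5, 14.4 and 13.9 CPM in WT, at 15.4, 15.7 and 13.3 CPM in the first-run MFN2 libraries and at 13.3, 12.5, 15.6, 15.1 and 15.3 CPM in the second-run ones. MFN2 libraries lay on both sides of the narrow WT range, 3 below it and 5 above it. The log2 fold change was 0.06 (SE 0.0782, edgeR adjusted p = 0.708). Of the 75-base stretches of Pisd transcripts, 16.9% also occur in the overlapping gene Gm20671, which had a count of 0 in all 12 libraries, and far fewer in the pseudogenes Pisd-ps1 and Pisd-ps2, at 46 and 101 of 6453 stretches.

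**Figure D2:**
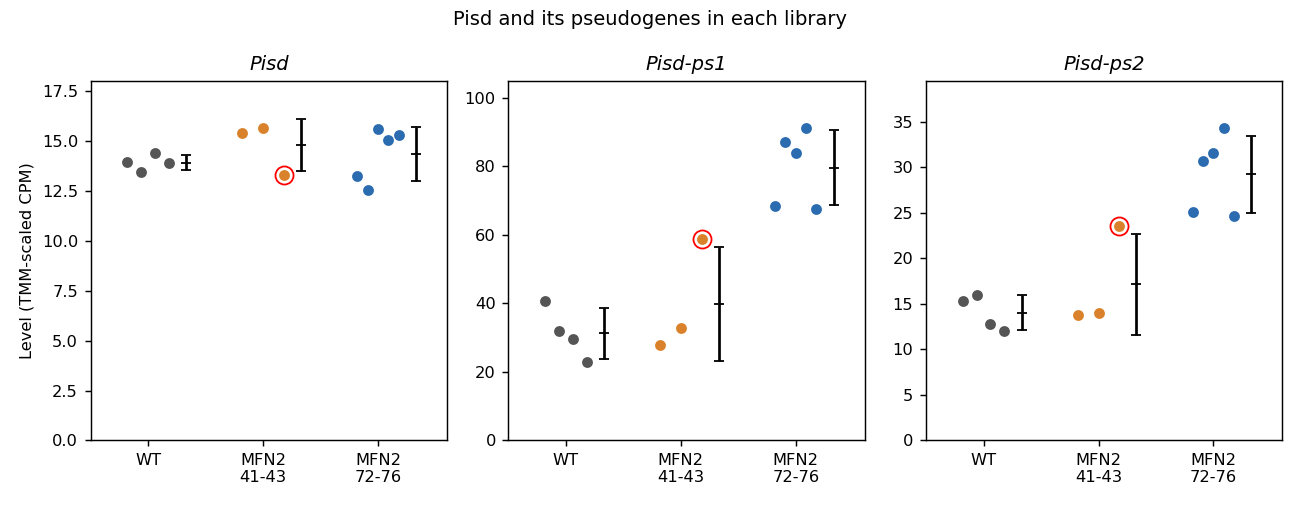
Level (TMM-scaled CPM, vertical axes from 0) of Pisd and the pseudogenes Pisd-ps1 and Pisd-ps2 in WT (grey), first-run MFN2 (orange) and second-run MFN2 (blue) libraries, one point per library, with mean and SD as a bar and library 43 ringed in red. Pisd stays between 12.5 and 15.7 CPM while Pisd-ps1 lies at 67.4 to 91.2 CPM in the second run and at 22.9 to 40.8 CPM in WT.

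Of the transfer genes, Prelid3b was lower and Prelid1 higher in the second-run MFN2 libraries than in WT. Prelid3b (ENSMUSG00000016257, chr2:174465067-174473081, minus strand) was at 33.3, 36.0, 35.4 and 35.4 CPM in WT, at 34.8, 35.8 and 25.5 CPM in MFN2 libraries 41, 42 and 43, and at 27.5, 26.4, 26.8, 29.0 and 30.2 CPM in libraries 72 to 76. Libraries 41 and 42 lay within the WT range, while library 43 and all 5 second-run libraries lay below it. Its log2 fold change was -0.25 over all MFN2 mice (SE 0.0945, edgeR adjusted p = 0.285) and -0.33 for the second run (SE 0.0579, edgeR adjusted p = 0.00235), a fall of 20.3% seen in 5 of 5 libraries. For the first run it was -0.12 (SE 0.121, edgeR adjusted p = 0.725), and 0.02 without library 43. When the 3 groups were put in 1 fit, the second-run adjusted p of Prelid3b rose to 0.0525, the highest over its alternatives, which went down to 2.98e-05.

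Prelid1 (ENSMUSG00000021486, chr13:55320500-55325272, plus strand) was at 57.7, 67.9, 69.6 and 63.0 CPM in WT, at 67.9, 64.9 and 60.2 CPM in the first-run MFN2 libraries and at 76.5, 70.6, 70.0, 74.1 and 74.7 CPM in the second-run ones. Every second-run library was above every WT library, by as little as 70.0 over 69.6 CPM. The log2 fold change was 0.11 over all MFN2 mice (SE 0.0750, edgeR adjusted p = 0.460), 0.01 for the first run (SE 0.0890, edgeR adjusted p = 0.971) and 0.18 for the second run (SE 0.0586, edgeR adjusted p = 0.0424). This call is a narrow one, since its adjusted p over the alternatives ran from 0.00491 to 0.108 and it was lost without a filter on low counts, with edgeR's filterByExpr, in the fit of 3 groups, and whenever 1 library was left out other than WT library 46 or MFN2 library 73. Prelid1 shares 1258 exon bases with Rab24 on the opposite strand, a gene that was at 48.6 ± 4.88 CPM in WT (SD, n = 4) and 35.6 ± 2.36 CPM in the second-run libraries (SD, n = 5), with a log2 fold change of -0.45 (edgeR adjusted p = 0.00146). Whether the counting used strand is not given in the sources used here, and without strand reads from the 2 genes cannot be told apart.

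Triap1 (ENSMUSG00000029535, chr5:115341225-115343569, plus strand) was at 6.94, 8.48, 9.35 and 8.71 CPM in WT, at 8.28, 7.98 and 6.80 CPM in the first-run MFN2 libraries and at 7.78, 6.52, 6.60, 7.47 and 6.88 CPM in the second-run ones. The groups overlapped through WT library 44, the lowest WT value. Its log2 fold change was -0.20 over all MFN2 mice (SE 0.104, edgeR adjusted p = 0.373) and -0.25 for the second run (SE 0.109, edgeR adjusted p = 0.115), and only without WT library 44 did the second-run value pass, at -0.33 (edgeR adjusted p = 0.0331, with a highest value of 0.285 over the alternatives). The carriers' nearest relatives outside the 10 were Prelid3a, at 13.0 ± 0.696 CPM in WT (SD, n = 4) with a second-run log2 fold change of 0.16 (SE 0.0787, edgeR adjusted p = 0.156), and Prelid2, which stayed at or below 0.816 CPM in every library and was not tested.

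**Figure D3:**
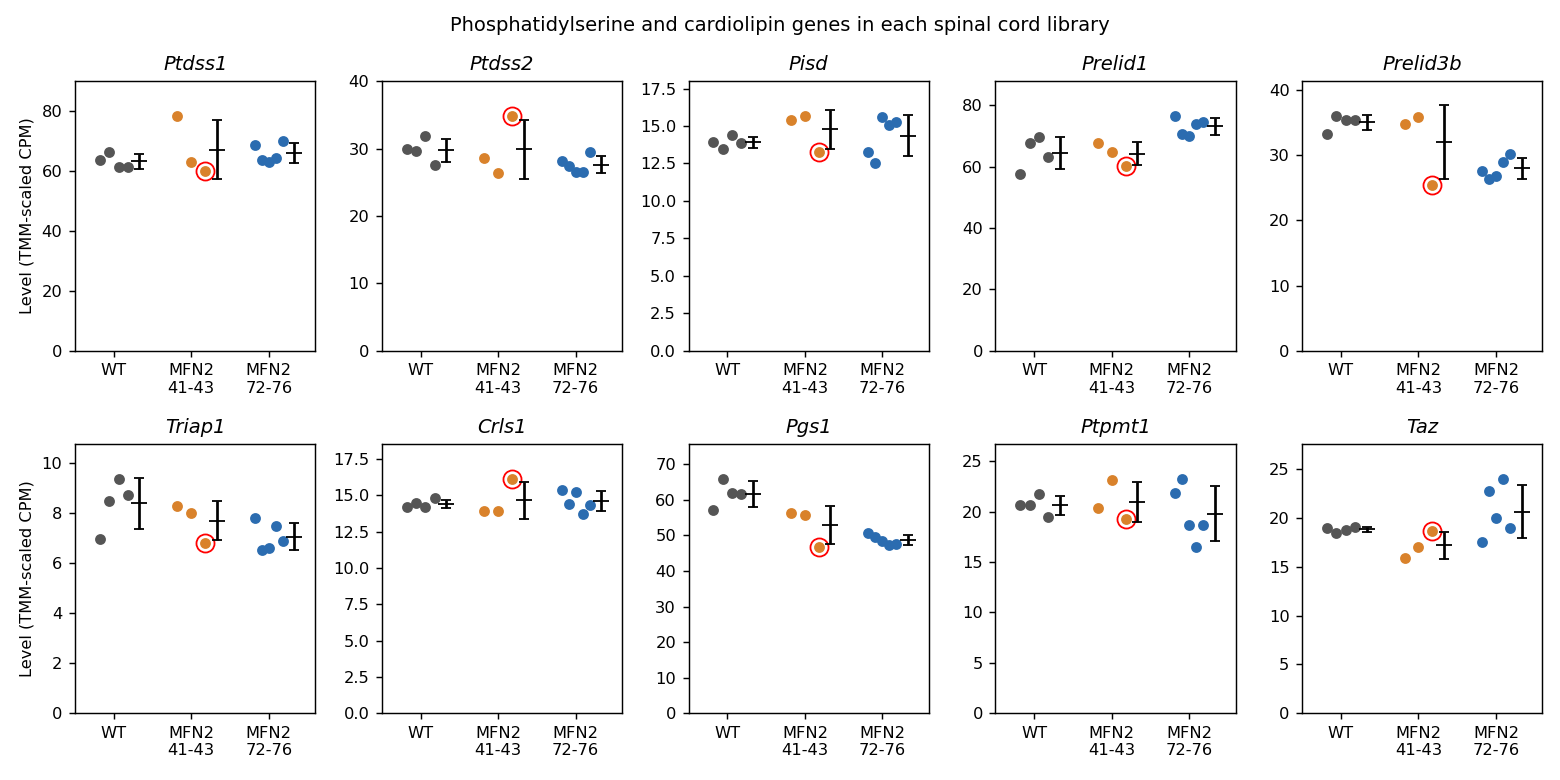
Level (TMM-scaled CPM, vertical axes from 0) of each gene in WT (grey), first-run MFN2 (orange) and second-run MFN2 (blue) libraries, one point per library, with the mean and SD as a bar and library 43 ringed in red. All 8 MFN2 points lie below the 4 WT points for Pgs1 alone, and for Prelid3b library 43 lies with the second run while libraries 41 and 42 lie with WT.

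Within the cardiolipin branch, Pgs1 was lower in every MFN2 library than in every WT library, and the 3 genes that act after it did not pass the test. Pgs1 (ENSMUSG00000017715, chr11:117986292-118024011, plus strand) was at 57.1, 65.9, 61.8 and 61.7 CPM in WT, at 56.3, 55.8 and 46.8 CPM in MFN2 libraries 41, 42 and 43, and at 50.6, 49.5, 48.4, 47.4 and 47.7 CPM in libraries 72 to 76. The gap between the groups was small, 56.3 against 57.1 CPM, and lay between libraries 41 and 44. Over all MFN2 mice the log2 fold change was -0.29 (SE 0.0667), which missed the threshold after adjustment over all genes (edgeR adjusted p = 0.254). DESeq2 called it (adjusted p = 0.0205), the lowest value over the alternatives, and the highest was 0.554. Without library 43 the edgeR value was -0.28 (SE 0.0630, adjusted p = 0.0774). For the second run the log2 fold change was -0.34 (SE 0.0512, edgeR adjusted p = 0.00101), a fall of 21.0%, and the call held in every alternative, with adjusted p-values from 6.13e-07 to 0.0130. Against the WT libraries of its own run the first-run value was -0.20 (SE 0.0907, edgeR adjusted p = 0.622), with 3 of 3 libraries below WT (1 of the 10 genes did not overlap, where 8.97% of all genes did not), and -0.13 without library 43 (edgeR adjusted p = 0.904, the highest over alternatives that went down to 0.267). With a term for the 2 runs in the fit, the MFN2 effect was -0.22 (edgeR adjusted p = 0.267). Pgs1 shares 25 of 5328 75-base stretches with a gene on the other strand, Dnah17, whose count was at most 34.

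Ptpmt1 (ENSMUSG00000063235, chr2:90908716-90918258, minus strand) was at 20.6 ± 0.940 CPM in WT (SD, n = 4) and 20.2 ± 2.37 CPM in MFN2 mice (SD, n = 8), with a log2 fold change of -0.03 (SE 0.0924, edgeR adjusted p = 0.895). The direction of this value turned positive when libraries were scaled by size only. Ptpmt1 shares 1657 exon bases with Kbtbd4 on the opposite strand, which was at 18.2 ± 2.52 CPM in WT (SD, n = 4) and 17.8 ± 1.86 CPM in MFN2 mice (SD, n = 8). Crls1 (ENSMUSG00000027357, chr2:132846666-132866785, plus strand) was at 14.4 ± 0.291 CPM in WT (SD, n = 4) and 14.6 ± 0.861 CPM in MFN2 mice (SD, n = 8). Its log2 fold change of 0.02 (SE 0.0643, edgeR adjusted p = 0.893) was the smallest of the 10 genes in the main edgeR fit, though not under every alternative.

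Taz (ENSMUSG00000009995, chrX:74281912-74290151, plus strand) was at 18.9, 18.5, 18.8 and 19.0 CPM in WT, at 15.9, 17.0 and 18.6 CPM in the first-run MFN2 libraries and at 17.5, 22.7, 19.95, 23.96 and 18.9 CPM in the second-run ones. The 8 MFN2 libraries spread to both sides of the WT range, which ran from 18.5 to 19.0 CPM. The log2 fold change was 0.04 over all MFN2 mice (SE 0.105, edgeR adjusted p = 0.871), -0.11 for the first run (SE 0.0919, edgeR adjusted p = 0.675) and 0.13 for the second (SE 0.0888, edgeR adjusted p = 0.307). Without library 43 the first-run value was -0.18 (SE 0.0944, edgeR adjusted p = 0.895). With that term for the runs the MFN2 value turned to -0.13.

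The summed level of the 10 genes was 330 ± 11.7 CPM in WT (SD, n = 4) and 320 ± 11.6 CPM in MFN2 mice (SD, n = 8), with overlapping ranges. In MFN2 against WT, 0 of the 10 genes passed an FDR of 0.05, where 0% of the 15942 genes tested did, while DESeq2 called 1 (Pgs1) with 200 genes in all and limma-voom called 0 of the 10. At an unadjusted p under 0.05 there were 2 of 10, Pgs1 and Prelid3b, both lower, where 15.0% of all genes reached it. The groups did not overlap for 1 of 10 (Pgs1), where 2.04% of all genes had this property. Without library 43, 0 of 10 passed the FDR in edgeR (0.120% of 15835 genes did) and 3 of 10 were at an unadjusted p under 0.05 (21.2% of all genes), Prelid1 being the added one. The median log2 fold change of the 10 was -0.0042, beside 0.0038 for all genes, with 5 positive and 5 negative values. For the first-run MFN2 libraries against WT, 0 of 10 passed the FDR in edgeR, DESeq2 or limma-voom (edgeR called 0.00658% of 15200 genes, 1 gene), and 0 of 10 reached an unadjusted p under 0.05 (7.12% of genes). Without library 43 both counts were again 0 of 10 in edgeR, where 0.00667% and 5.72% of 14988 genes reached these limits. For the second-run MFN2 libraries against WT, 3 of 10 passed, Prelid1 up and Prelid3b and Pgs1 down, where 23.8% of the 15743 genes did, and the same 3 did not overlap with WT, where 19.8% of all genes did not. These 3 of 10 are near the background share. Without library 73 the same 3 passed, where 20.3% of 15560 genes did, with log2 fold changes of -0.34 for Pgs1, -0.30 for Prelid3b and 0.20 for Prelid1 (edgeR adjusted p = 0.0475). The comparisons with WT share the same 4 WT libraries, so that they are not independent of one another.

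**Figure D4:**
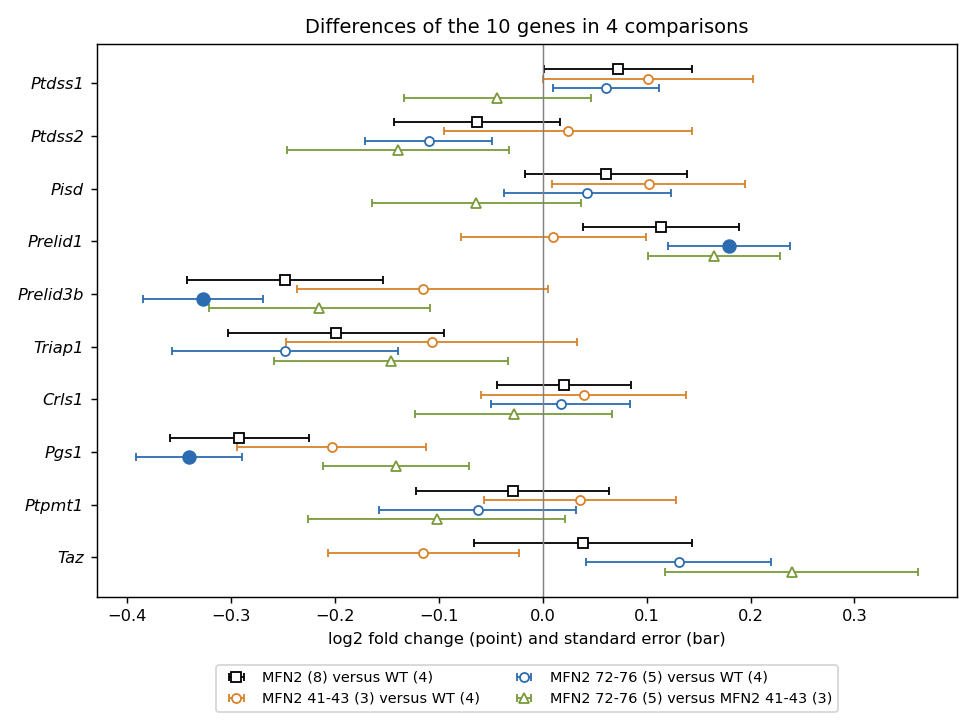
The log2 fold change (point) and its standard error (bar) of each gene in 4 comparisons, with the number of libraries per group in brackets, filled points where the edgeR adjusted p was at or under 0.05, and a grey line at 0. Filled points occur for Prelid1, Prelid3b and Pgs1 in MFN2 libraries 72 to 76 against WT and nowhere else.

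The 2 runs were also compared within MFN2 mice, where genotype is the same. None of the 10 genes passed the FDR in edgeR, where 2.19% of the 15633 genes did, or in DESeq2 or limma-voom, and 1 of 10, Prelid1, was at an unadjusted p under 0.05, where 24.6% of genes were. Prelid1 had a log2 difference of the second over the first run of 0.16 (SE 0.0633, edgeR adjusted p = 0.158), with no overlap between the runs, a property of 1 of the 10 genes and of 18.4% of all genes. Taz was at 0.24 (SE 0.122, edgeR adjusted p = 0.260), Prelid3b at -0.21 (SE 0.106, edgeR adjusted p = 0.248) and Pgs1 at -0.14 (SE 0.0701, edgeR adjusted p = 0.2496). Library 43 decided the last pair of values. Without it, Prelid3b was at -0.34 (edgeR adjusted p = 0.0112) and Pgs1 at -0.21 (edgeR adjusted p = 0.0328), both past the threshold along with 2375 genes in all (15.3% of 15509), and with other libraries left out or other settings these adjusted p-values went up to 0.522 and 0.614. Both genes were thus lower in the second run than in libraries 41 and 42, all from MFN2 mice, and the runs and the mice in them cannot be told apart.

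Pgs1 and Prelid3b were lowest in the same 6 libraries, the 5 of the second run and library 43. Pgs1 was at 46.8 to 50.6 CPM in these and at 55.8 CPM or more in the other 6, and Prelid3b at 25.5 to 30.2 CPM in these and at 33.3 CPM or more in the other 6. Since the libraries fall into these separate clusters, no correlation between the genes is given. The genes were set side by side after both were seen lower in the second run without overlap with WT. Their sharing of the 5 second-run libraries largely follows from that choice, and 19.8% of all genes did not overlap there in either direction. Triap1 followed them only in part, since WT library 44 was at 6.94 CPM, below 2 of the second-run libraries. The genes whose log2 CPM was most like the mean of the 10 standardised profiles were Nelfb (Pearson r = 0.935), Puf60 (0.933), Uvrag (0.924), Hgs (0.924) and Abhd11os (0.922). These values are over 12 libraries that share depth, run and genotype, and they describe likeness only.

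**Figure D5:**
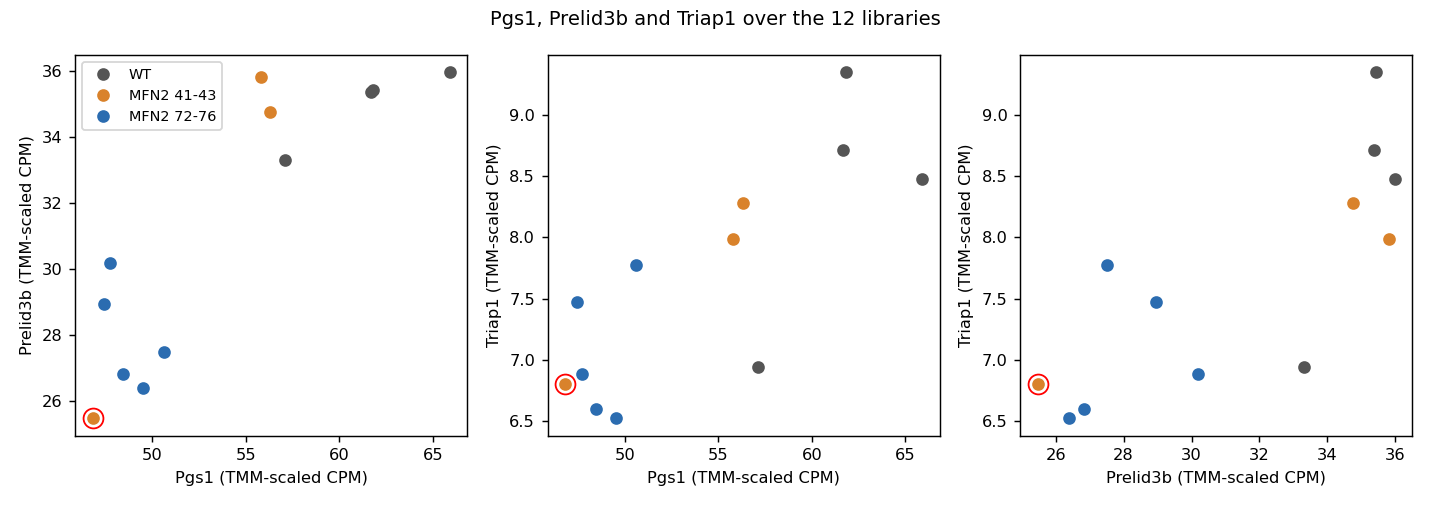
Level (TMM-scaled CPM) of Pgs1, Prelid3b and Triap1 plotted against each other, one point per library, in WT (grey), first-run MFN2 (orange) and second-run MFN2 (blue), with library 43 ringed in red; axes do not start at 0. In the plot of Pgs1 against Prelid3b, the second-run libraries and library 43 form one cluster at 46.8 to 50.6 CPM of Pgs1, apart from WT and libraries 41 and 42.

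The wider pathway was read from 5 lists of 61 genes, 59 of them tested in MFN2 against WT. None passed in edgeR there or in the first run, where 9 of 59 and 5 of 57 were at an unadjusted p under 0.05, near the 15.0% and 7.12% of all genes (0 of 59 and 0 of 57 passed without library 43), and 18 of 59 passed in the second run against WT, 6 higher and 12 lower, beside the 23.8% of all genes that passed. Without library 73 there were 15 of 57, 6 higher and 9 lower, beside 20.3% of all genes. The second-run calls named below are those with library 73, and some of the genes named as lower did not pass without it. The list of genes that make phosphatidic acid or turn it into CDP-diacylglycerol, the precursor on which Pgs1 and Crls1 draw, or into diacylglycerol had 4 of 12 genes lower and 0 higher in the second run, beside the 23.8% of all genes called. They were Cds1 and Cds2, the CDP-diacylglycerol synthases of the endoplasmic reticulum, Agpat3, an acyltransferase that makes phosphatidic acid, and Lpin1, a phosphatidic acid phosphatase, which turns phosphatidic acid into diacylglycerol and so away from CDP-diacylglycerol. Their second-run log2 fold changes were -0.24 for Cds1 (SE 0.0504, edgeR adjusted p = 0.00567), -0.20 for Agpat3, -0.20 for Lpin1 and -0.19 for Cds2. None of the 4 passed in the first run, where Cds1 was at -0.26, Lpin1 at -0.53 and Agpat3 at -0.13, and Cds2 on the other side of 0 at 0.20 (SE 0.0984, edgeR adjusted p = 0.622). Tamm41, the CDP-diacylglycerol synthase of mitochondria, did not pass, at 0.18 in the second run (SE 0.107, edgeR adjusted p = 0.231). The median over this list was -0.14 in the second run, beside -0.00066 for all genes. The summed level was 1262 ± 11.6 CPM in WT (SD, n = 4) and 1131 ± 13.4 CPM in the second-run libraries (SD, n = 5), with no overlap. This was not particular to the list. The sums of the mitochondrial content list did not overlap either, at 2739 to 2958 CPM in WT and 2585 to 2727 CPM in the second run. The same held for the sums of the microglial and the astrocyte markers. The first-run MFN2 libraries 41, 42 and 43 summed to 1269, 1236 and 1104 CPM, so that library 41 lay within the WT range. The first-run median was -0.11, and -0.016 without library 43. Without that library, Cds2 and Agpat3 passed as lower in the second run than in the first within MFN2 mice, beside 15.3% of all genes.

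In cardiolipin remodelling, transport and turnover, 2 of 11 genes fell and 0 rose in the second run, under the 23.8% of all genes called. These were Phb at -0.46 (SE 0.0698, edgeR adjusted p = 0.00102) and Stoml2 at -0.26 (SE 0.0640, edgeR adjusted p = 0.0133), which encode scaffold proteins of the inner membrane and not enzymes of the lipid. Of 11 genes of the ethanolamine and choline (Kennedy) pathway, which makes phosphatidylethanolamine and phosphatidylcholine outside mitochondria, 2 rose and 2 fell, beside the same 23.8%. The choline kinase gene Chka was at 0.58 (SE 0.0834, edgeR adjusted p = 0.000759), Cept1, which makes the final transfer, at -0.35, and the ethanolamine kinase genes Etnk2 and Etnk1 at 0.57 and -0.14. Etnk2 was a minor transcript, at 2.09 ± 0.272 CPM in WT (SD, n = 4). For lipid transfer at mitochondrial contacts 1 of 13 rose, Serac1 at 0.55 (SE 0.0930, edgeR adjusted p = 0.00189), and 1 fell, the endoplasmic reticulum tether gene Vapb at -0.14, again beside 23.8% of all genes.

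Among flippases, scramblases and hydrolases that set where phosphatidylserine lies and how it is degraded, 3 of 12 rose and 3 fell in the second run, beside the 23.8% of all genes called. The scramblase-family genes Xkr6 and Xkr4 were at 0.71 and 0.41 and the flippase gene Atp11b at 0.31, while the flippase genes Atp8a1 and Atp11a were at -0.21 and -0.38 and Abhd12, a lysophosphatidylserine lipase gene, at -0.29. In the first run none of the 12 passed in edgeR, and 4 had an unadjusted p under 0.05, beside 7.12% of all genes. There Xkr6 (-0.23), Atp8a1 (0.18) and Abhd12 (0.04) were on the other side of 0. Xkr4 (1.19, SE 0.504, edgeR adjusted p = 0.622), Atp11b (0.16) and Atp11a (-0.38) were on the same side. The first-run value of Xkr4 includes library 43. Second run over first within MFN2 mice, Xkr4 was at -0.79 (SE 0.442, edgeR adjusted p = 0.301) with that library. Without it, 5 genes of this list passed as higher and 2 as lower in the second run, Xkr4 and Atp11b among those called. Between the runs within MFN2 mice, 4 of 58 genes of the 5 lists passed, Chka (0.50) and Xkr6 (0.93) higher and Atp8a1 (-0.40) and Abhd12 (-0.33) lower in the second run, beside the 2.19% of all genes. Without library 43 there were 14 of 57, 7 higher and 7 lower, beside 15.3% of all genes. Of 12 nuclear genes of mitochondrial content, 3 fell in the second run against WT, Cox4i1 at -0.36, Vdac1 at -0.21 and Cs at -0.18, and 0 rose, a share near the 23.8% of all genes called.

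Markers of microglia and astrocytes were also lower in the second run than in WT, where 23.8% of all genes passed in either direction. All 6 microglial markers were lower than in WT, with a median log2 fold change of -0.54, and their summed level was 139 ± 17.4 CPM in WT (SD, n = 4) and 102 ± 9.57 CPM in the second run (SD, n = 5); the most abundant was Csf1r. In the first run all 6 microglial markers lay on the other side of 0, with a median of 0.23, and none passed in edgeR or had an unadjusted p under 0.05. Without library 43 this first-run median was 0.097, and again none passed. In the second run against the first within MFN2 mice all 6 had values below 0, with a median of -0.80, where 1 of the 6 passed in edgeR (Cx3cr1) and 6 of 6 had an unadjusted p under 0.05. Without library 43 the median between the runs was -0.67, and 3 of the 6 passed as lower (Cx3cr1, Tmem119 and C1qa), beside 15.3% of all genes. All 6 astrocyte markers were lower in the second run than in WT and 4 passed, Gfap at -1.08. The list summed to 7151 ± 421 CPM in WT (SD, n = 4) and 5355 ± 591 CPM in the second run (SD, n = 5), led by Slc1a2. In the first run 4 were lower and 2 higher (median -0.13, 0.029 without library 43), and none passed. Between the runs within MFN2 mice all 6 were lower in the second (median -0.24), and none passed. Without library 43, 2 passed as lower there (Aldh1l1 and Gja1), beside 15.3% of all genes. In the second run against WT, 1 of 5 endothelial markers passed as lower (Cldn5). Of 7 neuronal markers 1 passed as higher (Syt1) and 1 as lower (Snap25), and of 7 forebrain markers tested 1 passed as higher (Nrgn). These shares were near or under the 23.8% of all genes. None of the 7 oligodendrocyte, 7 motor neuron and 9 caudal Hox markers passed in edgeR in that comparison, with 1 of each list at an unadjusted p under 0.05. Between the runs within MFN2 mice, all 7 motor neuron markers were higher in the second run (median 0.73), and none passed. Without library 43 their median was 0.24, and 3 of 7 passed as higher (Chat, Slc5a7 and Nefh), beside 15.3% of all genes. There 1 caudal Hox marker passed as lower (Hoxb8) and no oligodendrocyte marker passed. The Schwann cell transcripts of library 73 lie within the second-run group as well. The part of these cell types in the differences of Pgs1, Prelid3b and Prelid1 was not tested.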

How the data were processed

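The authors aligned reads with STAR to GRCm38.p6, and they deposited whole-number counts per Ensembl gene, 1 table per library, without normalization. The labels name a SMARTer kit for mRNA and the study's methods a stranded total RNA kit with 75-base paired reads. The same methods also speak of poly(A) mRNA sequencing, under a heading that names 3′-mRNA sequencing. Which tool counted, and whether by strand, is not given in the sources used here. Groups came from the genotype labels. Each of 4 comparisons was fitted on its own libraries with edgeR 4.0.16 in R 4.3.3 (TMM scaling, more than 1 CPM in at least 3 libraries, robust quasi-likelihood test, Benjamini-Hochberg adjustment over all genes, threshold 0.05). All adjusted p-values are of this test unless another tool is named. Each p-value sets a difference between groups against the variation between libraries within the groups. For the second run against WT it does not separate genotype from run. Exon lengths and gene positions came from GENCODE, promoter sequences from RefSeq. Other scalings, filters, DESeq2 1.42.0, limma-voom (limma 3.58.1), fits with the run as covariate or as 3 groups, and leaving out each library were tried. The edgeR step was tested on simulated data. The members and all lists were chosen with earlier results of these data known. The text names all 10 members, Mfn2, up to 3 genes with the lowest p per list past the threshold (further called genes, Rab24, Kbtbd4 and the pseudogenes were added after their values were seen), the most abundant gene of cell type lists that moved, and the 5 genes most like the mean profile. The markers Prx and Hox10, and the counts without library 73, were added after their values were seen. One gene of the Schwann cell list is not reported here.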

Additional observations from a re-analysis of the deposited data

Results flagged for a closer look

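Of 30 groups of 4 to 8 libraries examined for a lone extreme value, 1 was beyond Dixon's critical value, where chance gives about 1.5. This was Ptdss2 in the 8 MFN2 libraries, where library 43 was highest at 34.8 CPM and the next at 29.6 CPM, a gap of 0.617 of the whole range. The same library had the low caudal Hox and high forebrain levels given above, and their part in this value was not tested.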

How the results depend on the processing

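No paired analysis was made, because the library titles give no litter or other link between MFN2 and WT mice. In MFN2 against WT, DESeq2 called 200 genes and 1 of the 10 lipid genes (Pgs1), and leaving out 1 library each gave 0 to 19 genes, 19 without library 43. With the run as covariate, Ptdss2 turned to 0.0066, Prelid1 to -0.0049, Ptpmt1 to 0.021 and Taz to -0.13, and by library size only Ptpmt1 was 0.022. Leaving out 1 library each, Crls1 ranged from -0.00076 to 0.036, Ptpmt1 from -0.059 to 0.010 and Taz from -0.012 to 0.070. In the first run against WT, genes called were 0 without a filter, with limma-voom and in 1 fit of 3 groups, 5 with DESeq2, and 0 to 2 with 1 library left out. There Ptdss2 turned to -0.012 under upper quartile scaling, and Prelid1 to -0.022 under it, -0.00020 without a filter and -0.0049 in the fit of 3 groups. With 1 library left out, the ranges were -0.015 to 0.17 for Ptdss1, -0.11 to 0.11 for Ptdss2, -0.037 to 0.050 for Prelid1, -0.20 to 0.020 for Prelid3b, -0.043 to 0.083 for Crls1 and -0.044 to 0.086 for Ptpmt1. In the second run against WT, the fit of 3 groups gave 1224 genes and 1 of the 10, leaving out 1 library 2350 to 4517 genes (2350 without WT library 45), and Ptpmt1 turned to 0.0090 by library size only and ranged from -0.12 to 0.0034. By library size only the split of calls was 2822 higher and 1345 lower, beside 1746 and 2000. Between runs within MFN2 mice, DESeq2 gave 1795 genes, the fit of 3 groups 1339, and leaving out 1 library 31 to 2375 genes and 0 to 2 of the 10 (both highest without library 43). There library size only turned Ptdss1 to 0.027, Pisd to 0.0064 and Crls1 to 0.048, upper quartile scaling turned Ptdss1 to 0.013 and Crls1 to 0.034, and leave-one-out ranges were -0.11 to 0.094 for Ptdss1 and -0.071 to 0.062 for Crls1. Splits of the calls there were 157 higher and 185 lower, 281 and 105 by library size only, and 259 and 113 by upper quartile. The causes of these shifts were not tested. Of 40 group levels, 38 moved by less than 1 SD by library size only.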

Other observations

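The pseudogenes of Pisd were outside the 10 genes and were looked at after their values were seen. Pisd-ps1 was at 40.8, 31.9, 29.7 and 22.9 CPM in the 4 WT libraries, at 27.8, 32.7 and 58.7 CPM in MFN2 libraries 41, 42 and 43, and at 68.4, 87.0, 83.8, 91.2 and 67.4 CPM in the second-run MFN2 libraries. All second-run libraries lay above all WT libraries, while libraries 41 and 42 lay within the WT range and library 43 between the groups. Its second-run log2 fold change against WT was 1.34 (SE 0.160, edgeR adjusted p = 0.000739), and Pisd-ps2 was at 1.06 (SE 0.119, edgeR adjusted p = 0.000260). Over all MFN2 mice neither passed, at 1.04 and 0.81 (edgeR adjusted p = 0.262 each). Pisd itself had a second-run value of 0.04 (SE 0.0801, edgeR adjusted p = 0.736). In WT the pseudogene Pisd-ps1 was counted at 31.3 ± 7.39 CPM and Pisd at 13.9 ± 0.380 CPM (SD, n = 4), and per length at 17.8 and 2.42 RPKM. How reads that fit both were assigned is not given in the sources used here.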
